A study of Mus musculus with 19 samples.

Results

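Hepatocyte transcription factors were examined in the liver RNA-seq of mice that lost RALY, an RNA-binding protein of the heterogeneous nuclear ribonucleoprotein family. The 8 genes were Foxq1, Foxa1, Foxa2, Foxa3, Onecut1, Cebpa, Cebpb and Prox1, taken by symbol from the 24054 genes of the deposited table. Of these, 7 were selected by their role, as factors of hepatocyte identity that are not nuclear receptors, with earlier results of these data known. Foxq1 was selected from the data, for its rise in L-RalyKO liver, so its change is described here without a test. All mice were Raly flox/flox on a C57BL/6 background and ate a chow diet, and the study used males where it does not state otherwise. It describes the mice of its liver qPCR as fasting, but its methods do not say whether the RNA-seq livers were from fed or fasted mice. The L-RalyKO group (n = 3) had received AAV8.TBG.Cre and the control group (n = 3) AAV8.TBG.GFP, 4 weeks before the livers were taken. The labels name the controls wild type, although by the study's methods they carry the same floxed alleles. The TBG promoter drives Cre in hepatocytes, whereas whole liver was sequenced, so that in these bulk samples more cells of a type and more RNA per cell cannot be told apart.

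FOXA1, FOXA2 and FOXA3 are forkhead proteins that bind compacted chromatin early and open it for other factors, and they act in liver development and in the fed and fasted adult liver. ONECUT1, also called HNF6, is a cut-homeodomain factor of hepatocytes and bile ducts, and C/EBPα and C/EBPβ are leucine zipper factors that drive metabolic and acute phase genes. PROX1 is a homeodomain protein needed for the outgrowth of the embryonic liver and also marks lymphatic endothelium. FOXQ1 is a forkhead protein best known from hair and stomach, and it has been linked to gluconeogenesis in liver and to epithelial-mesenchymal transition in tumours. The FOXA, ONECUT1 and C/EBP proteins bind one another's genes and many of the same targets in hepatocytes.

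The promoters of the Foxa genes are shown because the groups did not overlap for any of the 3 genes and because the study also examined NFY, the factor that binds the word CCAAT. The 250 bases before the annotated start come from RefSeq on GRCm38.p6 and run 5′ to 3′ on the strand of the gene. Capitals mark every match, on either strand, of CCAAT (NFY), TGTTTAC (forkhead), TTGCGNA (C/EBP), ATTGATT (ONECUT) and TATAAA (the TATA word).
Foxa1 (chr12:57546112-57546361, minus strand): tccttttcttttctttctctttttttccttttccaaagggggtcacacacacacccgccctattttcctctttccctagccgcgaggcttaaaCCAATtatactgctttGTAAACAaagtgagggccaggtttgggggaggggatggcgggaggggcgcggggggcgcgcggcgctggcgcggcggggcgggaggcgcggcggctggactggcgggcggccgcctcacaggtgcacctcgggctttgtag
Foxa2, the start farthest upstream (chr2:148046970-148047219, minus strand): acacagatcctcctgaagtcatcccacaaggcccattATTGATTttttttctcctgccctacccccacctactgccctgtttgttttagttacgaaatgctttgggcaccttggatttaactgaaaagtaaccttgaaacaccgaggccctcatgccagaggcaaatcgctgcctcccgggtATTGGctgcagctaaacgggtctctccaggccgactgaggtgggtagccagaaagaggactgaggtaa
Foxa3 (chr7:19023540-19023789, minus strand): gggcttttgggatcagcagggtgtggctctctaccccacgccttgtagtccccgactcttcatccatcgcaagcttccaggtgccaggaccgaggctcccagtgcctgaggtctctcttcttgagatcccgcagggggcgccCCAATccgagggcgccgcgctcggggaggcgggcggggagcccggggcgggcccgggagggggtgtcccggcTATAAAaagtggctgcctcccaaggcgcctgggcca
Each of these windows held 1 match of CCAAT, beginning 157 bases before the start of Foxa1, 68 bases before that of Foxa2 (as ATTGG on the strand shown) and 108 bases before that of Foxa3. The word is common, since 37.4% of 32851 RefSeq promoter windows of 300 bases hold it. The Foxa1 window also held the forkhead word (3.65% of all windows), the Foxa2 window the ONECUT word (2.86% of all windows) and the Foxa3 window the TATA word 36 bases before its start (13.6% of all windows). The other 2 starts of Foxa2 had no CCAAT. Among the remaining factors, a window of Prox1 held CCAAT on the opposite strand after its start, and the TATA word on the opposite strand 34 bases before it. The Cebpa promoter held the TATA word 30 bases before its start, the Cebpb window held it after the start, and the window of Onecut1 held none of the 5 words. Foxq1 is without an entry in that table. A match is a stretch of letters and no measure of binding.

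Values are scaled reads, the reads of a gene divided by the effective size of its library, so that 1 read was worth between 0.0263 and 0.0351, with no division by length unless a level is given per kb. Between 28302983 and 38052705 reads per mouse fell on genes. The deleted gene, Raly, was at 6.34, 6.61 and 7.39 in L-RalyKO mice 1, 2 and 3 and at 50.1, 48.6 and 46.8 in the controls. limma compared the groups on the log2(value + 1) scale for 11580 genes whose mean value reached 1, and p-values were adjusted over all of these by Benjamini-Hochberg. A gene is described as called when its adjusted p was under 0.05, which held for 6.55% of these genes, 3.36% higher and 3.19% lower after loss of Raly. Without adjustment the share was 22.7%. All 8 factors passed the filter on low values in both groups.

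Foxq1 (ENSMUSG00000038415.8, 1 exon, chromosome 13 from 31650039 to 31652839 of NCBIM37, plus strand) had values of 46.7, 38.4 and 13.9 in L-RalyKO mice 1, 2 and 3, from 1604, 1323 and 529 reads. In control mice 1, 2 and 3 it had values of 3.22, 6.07 and 6.54, from 108, 173 and 242 reads. Every L-RalyKO mouse lay above every control, but L-RalyKO mouse 3 was far below its group mates and nearer to the controls than to either of them. The means were 33.0 ± 17.0 and 5.28 ± 1.797 (SD, n = 3 mice each), a ratio of 6.25. The log2 fold change was 2.32 (standard error 0.40), and it was 2.83 without L-RalyKO mouse 3 and 1.995 without L-RalyKO mouse 1, the lowest of all alternatives. The coefficient of variation was 51.6% among L-RalyKO and 34.1% among control mice. In GENCODE vM1 the exons of A530084C06Rik, a gene on the opposite strand, cover 1164 of the 2801 exonic bases of Foxq1. The library kit keeps the strand, but whether the counting used it is not given in the sources used here. The deposited table has no gene with the symbol A530084C06Rik.

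Each of the 3 Foxa genes had higher values in all L-RalyKO mice than in all controls, and Foxa2 passed the test. Foxa2 (ENSMUSG00000037025.5, chromosome 2 from 147868613 to 147872705 of NCBIM37, minus strand), a regulator of fasting metabolism and bile acid handling, had values of 33.0, 28.9 and 21.3 in L-RalyKO mice and 13.3, 13.9 and 16.7 in controls. The groups did not overlap, and L-RalyKO mouse 3 was again the lowest of its group. On the log2 scale Foxa2 was higher by 0.86 with a standard error of 0.15 (95% interval from 0.53 to 1.201), and limma gave an adjusted p of 0.0126. The adjusted p was between 3.80e-08 (DESeq2) and 0.0501 (limma) over 16 alternative analyses, and the highest value came when control mouse 1 was left out.
Foxa3 (ENSMUSG00000040891.5, chromosome 7 from 19598631 to 19608887, minus strand), the most abundant of the 3 in adult liver, had values of 59.7, 56.4 and 51.3 in L-RalyKO mice and 27.7, 33.5 and 47.3 in controls. The groups did not overlap, although control mouse 3 came close to the lowest L-RalyKO mouse. Foxa3 differed by 0.64 on the log2 scale, with a standard error of 0.16 and a 95% interval from 0.28 to 1.01, and the adjusted p of 0.0520 from limma lay just above the threshold. Without control mouse 3 the log2 fold change was 0.85 and the adjusted p was 0.00279, and over all alternatives the highest adjusted p was 0.160, from edgeR.
Foxa1 (ENSMUSG00000035451.6, chromosome 12 from 58641618 to 58647108, minus strand) had values of 21.6, 25.1 and 18.02 in L-RalyKO mice and 16.3, 14.4 and 16.1 in controls. The groups did not overlap here either, and the gap between them was narrow. The log2 difference of Foxa1 was 0.43, its standard error 0.11 and its 95% interval 0.18 to 0.69, and the adjusted p from limma was 0.0550. Without L-RalyKO mouse 3 it was 0.55 with an adjusted p of 0.0221 from limma, and the adjusted p lay between 0.00471 (DESeq2) and 0.149 (limma) over all alternatives. Of the 7 factors chosen by role, 3 had groups that did not overlap, all higher in L-RalyKO liver. Such groups were found for 28.1% of all genes tested, with L-RalyKO higher for 14.4% and lower for 13.7%.

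**Figure D1:**
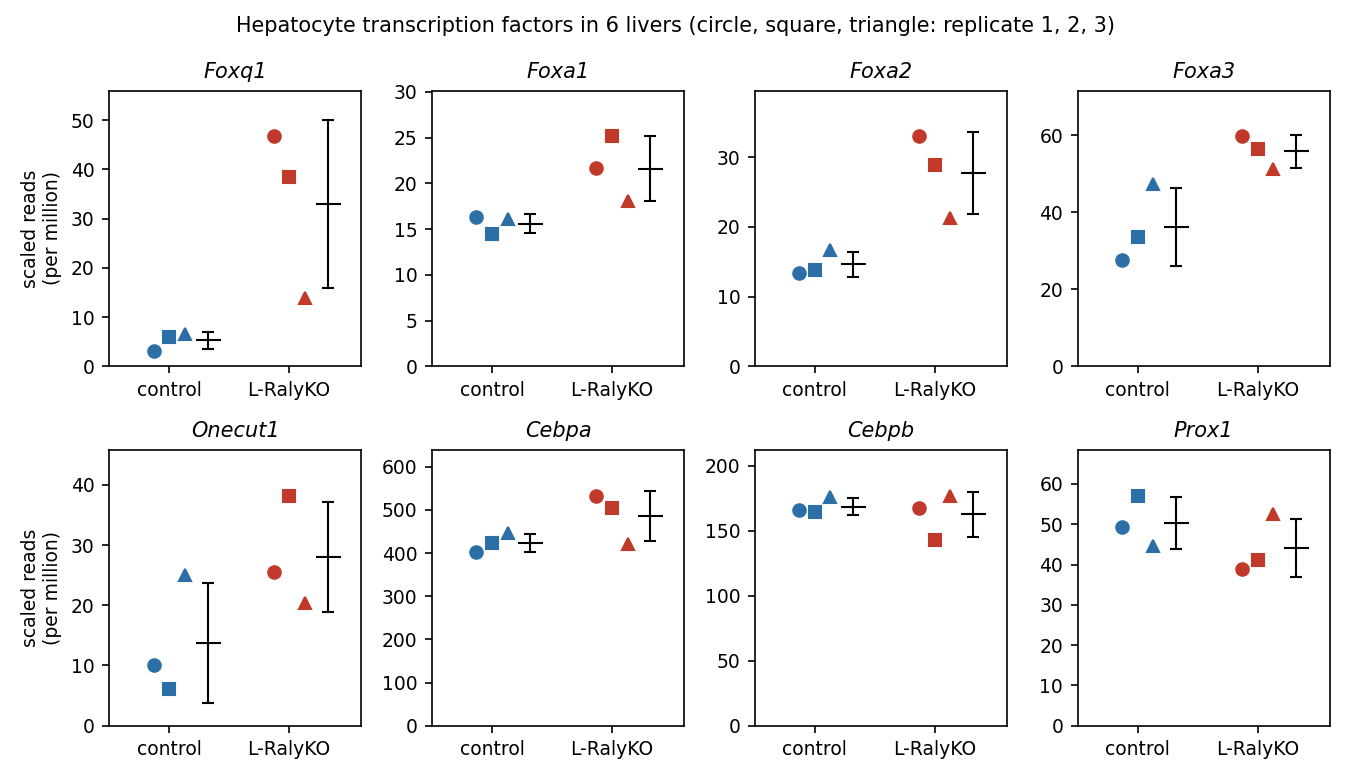
Scaled reads of the 8 factors in each liver, with control mice in blue, L-RalyKO mice in red, shapes for the replicate number, and the group mean with its SD (n = 3) in black. Foxq1, Foxa1, Foxa2 and Foxa3 do not overlap between groups, whereas Onecut1, Cebpa, Cebpb and Prox1 do.

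Onecut1 (ENSMUSG00000043013.7, chromosome 9 from 74709728 to 74737591, plus strand) had values of 25.5, 38.2 and 20.4 in L-RalyKO mice and 10.0, 6.10 and 25.0 in controls. Control mouse 3 lay above L-RalyKO mouse 3 and near L-RalyKO mouse 1, so that the groups overlapped, and the coefficient of variation of the controls was 72.7%. On the log2 scale the difference of Onecut1 was 1.15 with a standard error of 0.42, its 95% interval ran from 0.20 to 2.10, and it had an adjusted p of 0.144 from limma. It depended on single livers, since without control mouse 3 the log2 fold change was 1.67 (adjusted p = 0.0111, limma) and without control mouse 2 it was 0.73 (adjusted p = 0.306, limma), and over all 16 alternatives the highest adjusted p was 0.429, from edgeR. The processed transcript Gm16551 shares 479 exonic bases with Onecut1 on the same strand, which makes the division of reads between these genes uncertain. Gm16551 had values of 6.17, 8.56 and 8.03 in L-RalyKO mice and 3.01, 3.997 and 7.001 in controls, and its highest control was mouse 3 as well.

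Neither C/EBP gene passed the test. Cebpa (ENSMUSG00000034957.9, 1 exon, chromosome 7 from 35904312 to 35906945, plus strand), which restrains hepatocyte proliferation and drives metabolic genes, had values of 533, 504 and 421 in L-RalyKO mice and 402, 422 and 446 in controls. L-RalyKO mice 1 and 2 lay above all controls and mouse 3 lay among them. The log2 difference of Cebpa was 0.19 with a standard error of 0.087, the 95% interval ran from −0.00 to 0.39, and limma gave an adjusted p of 0.231. When 1 mouse was left out it lay between 0.12 (without L-RalyKO mouse 1) and 0.29 (without L-RalyKO mouse 3).
Cebpb (ENSMUSG00000056501.3, 1 exon, chromosome 2 from 167514415 to 167515918, plus strand), which drives acute phase and fasting genes, had values of 167, 143 and 177 in L-RalyKO mice and 166, 164 and 176 in controls. The lowest and the highest of the 6 values were both from L-RalyKO mice. The log2 fold change of Cebpb was −0.06 (standard error 0.077, adjusted p = 0.716 from limma), and its 95% interval of −0.23 to 0.12 bounds the difference. Tmem189 on the opposite strand shares 312 exonic bases with Cebpb. Per length, the ratio of Cebpa to Cebpb was 1.82, 2.01 and 1.36 in L-RalyKO mice and 1.39, 1.47 and 1.45 in controls, so that 1 L-RalyKO liver lay below all controls and the others above them.

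Prox1 (ENSMUSG00000010175.6, chromosome 1 from 191945660 to 191994559, minus strand), a partner and corepressor of nuclear receptors in hepatocytes, had values of 38.9, 41.1 and 52.4 in L-RalyKO mice and 49.4, 57.1 and 44.5 in controls. The groups overlapped, and here L-RalyKO mouse 3 was the highest of its group. The log2 difference of Prox1 was −0.19 with a standard error of 0.12 (95% interval from −0.47 to 0.09), and limma gave an adjusted p of 0.397. When 1 mouse was left out it lay between −0.32 (without L-RalyKO mouse 3) and −0.10 (without control mouse 2). Of the 7 factors with a test, Foxa2 alone had an adjusted p under 0.05, where 6.55% of all genes tested did. Another 4 had a log2 fold change above 0, and Cebpb and Prox1 had one below 0. Over all genes tested 51.2% had a log2 fold change above 0.

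**Figure D2:**
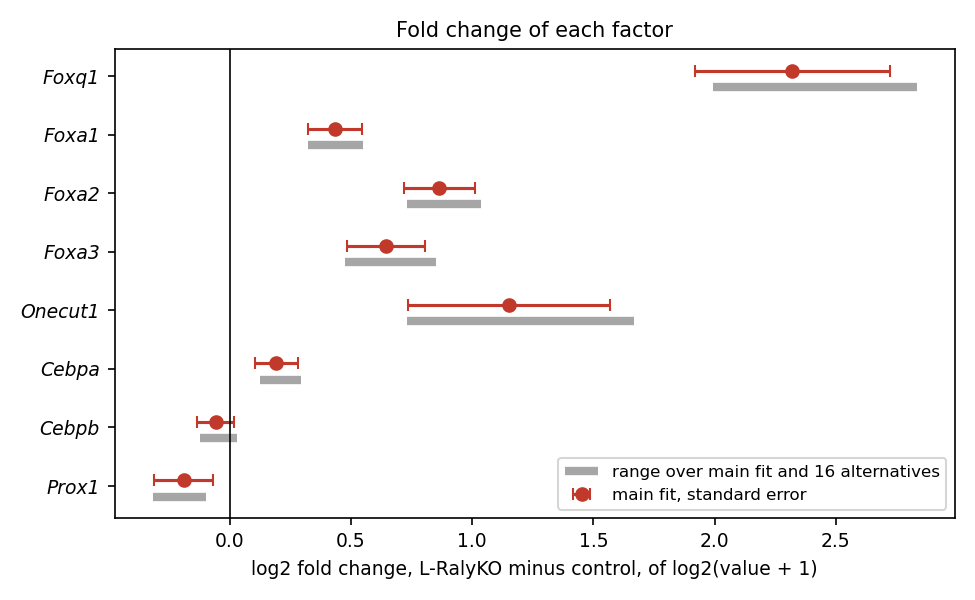
Log2 fold change of each factor, L-RalyKO minus control, on the scale of log2(value + 1), with the standard error of limma in red and the range over the main fit and the 16 alternatives in grey. Among the factors chosen by role, the grey ranges of the 3 Foxa genes, Onecut1 and Cebpa lie above 0, that of Prox1 lies below it, and that of Cebpb includes 0, whereas Foxq1 was chosen for its rise in these values and is drawn for its size alone.

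Levels were compared between genes per kilobase of annotated exon. In control liver the order was Cebpa (161 ± 8.31 scaled reads per kb, SD, n = 3), Cebpb (112 ± 4.24), Foxa3 (17.7 ± 4.92), Prox1 (12.2 ± 1.54), Onecut1 (6.47 ± 4.71), Foxa2 (6.16 ± 0.755), Foxa1 (4.90 ± 0.3197) and Foxq1 (1.88 ± 0.642). The ranges of neighbours overlapped from Foxa3 down to Foxa2, whereas Cebpa, Cebpb, Foxa1 and Foxq1 stood apart from their neighbours in the order. Cebpa lay at the 97.1th percentile and Foxq1 at the 28.1th percentile of 10867 tested genes with a length.
In L-RalyKO liver Cebpa (185 ± 22.01), Cebpb (108 ± 11.6) and Foxa3 (27.4 ± 2.06) led as before. Foxq1 (11.8 ± 6.08 scaled reads per kb) stood between Onecut1 (13.2 ± 4.33) and Foxa2 (11.7 ± 2.49), and Prox1 (10.7 ± 1.76) and Foxa1 (6.77 ± 1.11) followed. The ranges of neighbours overlapped from Onecut1 down to Prox1 in this order. The range of Foxq1, the lowest of the 8 in control liver, thus overlapped with that of Foxa2 in L-RalyKO liver. In L-RalyKO mouse 3, however, Foxq1 (4.97 scaled reads per kb) lay below Foxa1 (5.65) and remained the lowest of the 8.

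The summed Foxa level per kb was 49.97, 47.8 and 39.8 in L-RalyKO mice and 24.3, 26.8 and 35.2 in controls, without overlap. Foxa3 made up 59.9 ± 2.88% of this sum in L-RalyKO and 61.0 ± 4.96% in control liver, Foxa2 25.3 ± 2.63% and 21.6 ± 1.59%, and Foxa1 14.8 ± 1.54% and 17.4 ± 3.41% (SD, n = 3 each). Foxq1 amounted to 33.3, 28.7 and 12.5% of the Foxa sum in L-RalyKO mice and to 4.72, 8.08 and 6.63% in controls.

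**Figure D3:**
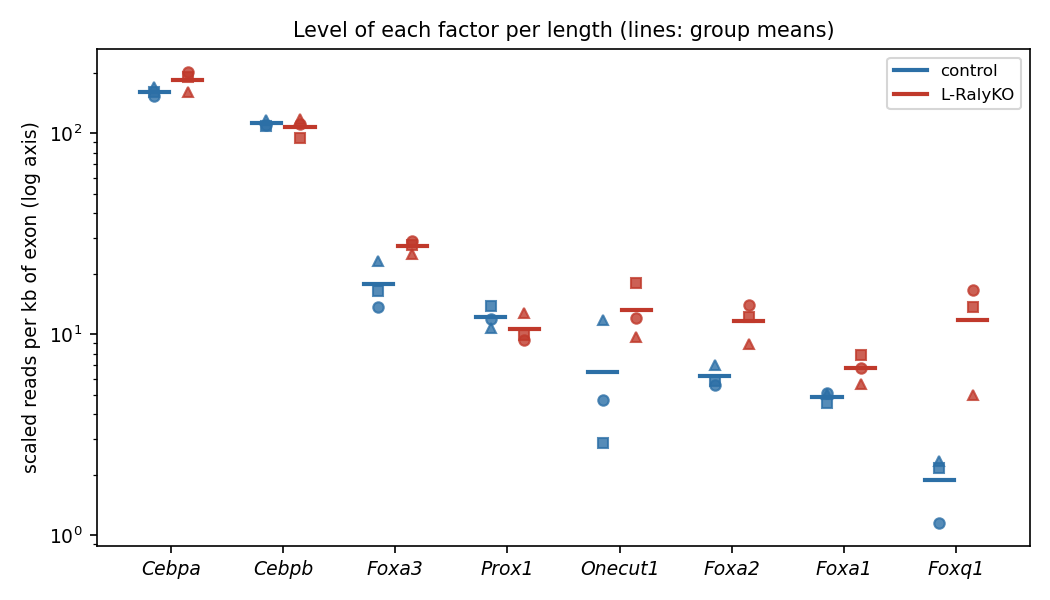
Scaled reads per kb of exon (log axis) for each factor in each liver, with group means as lines and circle, square and triangle for replicates 1, 2 and 3. Cebpa and Cebpb lie far above the others. Foxq1 has the lowest mean in control liver and a mean near that of Foxa2 in L-RalyKO liver. In L-RalyKO replicate 3 it remains the lowest factor.

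The livers of a group ordered themselves alike for several factors. L-RalyKO mouse 3 was the lowest L-RalyKO mouse for 6 of the 8 factors (Foxq1, Foxa1, Foxa2, Foxa3, Onecut1 and Cebpa), as it was for 37.9% of all genes tested. Control mouse 3 was the highest control for 6 of the 8 (Foxq1, Foxa2, Foxa3, Onecut1, Cebpa and Cebpb), against 35.6% of all genes. L-RalyKO mouse 3 also had the highest Raly value of its group (7.39) and the most reads (38052705). The part of these in the order of the mice was not tested.
The genes most like Foxq1 over the 6 livers, by Pearson correlation of log2(value + 1) among 10650 genes whose mean value reached 2, were Irf2bpl (r = 0.997), Zfp213 (0.994), Dpp3 (0.993), Zfp212 (0.993) and Sirt2 (0.992). Of the other factors, Foxa2 ranked 12th (r = 0.986), Cebpa 310th (0.918), Foxa1 481st (0.892), Foxa3 531st (0.885) and Onecut1 1584th (0.734), and Cebpb (−0.436) and Prox1 (−0.717) ran against Foxq1. Irf2bpl had values of 48.2, 44.4 and 34.1 in L-RalyKO mice and 23.3, 27.2 and 29.2 in controls, with the same order of the 6 livers as Foxq1. With group means removed the most similar were Cyp3a25 (r = 0.998), Man1b1 (0.989), Irf2bpl (0.988), Zfand4 (0.988) and Ptbp1 (0.987), and the other factors were Cebpa (0.978), Foxa2 (0.931), Foxa3 (0.601), Foxa1 (0.587), Onecut1 (0.365), Cebpb (−0.421) and Prox1 (−0.701). Zfand4, for example, had values of 30.7, 30.1 and 22.9 in L-RalyKO and 12.9, 14.1 and 14.7 in control mice. These correlations rest on 6 livers that share their libraries and fall into the groups compared, and they are given as a description.

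Relatives of the factors came next. The table listed 40 other forkhead genes, of which 13 passed the filter and 15 had no read in any mouse. Their median log2 fold change was −0.01, beside 0.00 over all genes tested, and 1 of the 13 was called higher and 0 lower, a share of 7.69% beside 6.55% of all genes tested. That gene was Foxj2, with values of 15.5, 15.6 and 14.6 in L-RalyKO mice and 11.98, 11.9 and 13.1 in controls (log2 fold change 0.28, adjusted p = 0.0441 from limma), and it kept the call in 6 of 16 alternatives. Foxo1, which drives gluconeogenic genes when insulin is low, showed a log2 difference of −0.04 (limma, adjusted p = 0.787). Of 7 tested relatives of the C/EBP, ONECUT and PROX genes 0 were called by limma, edgeR or DESeq2 (6.55, 6.68 and 9.40% of all genes). Ddit3, the stress-induced C/EBP homologue (log2 fold change 0.25), was the 1 with an unadjusted p under 0.05, as 22.7% of all genes had. Onecut2 had values of 90.4, 94.9 and 93.5 in L-RalyKO mice and 91.4, 91.2 and 116 in controls (log2 fold change −0.09).

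Among 19 tested other liver transcription factors 3 were called higher and 1 lower (21.1% called, beside 6.55% of all genes tested), with a median log2 fold change of −0.02. Hnf4a, the nuclear receptor at the centre of hepatocyte identity, had values of 900, 809 and 829 in L-RalyKO mice and 520, 542 and 680 in controls (log2 fold change 0.55, standard error 0.099, adjusted p = 0.0155, limma). It lost the call without L-RalyKO mouse 1, control mouse 1 or control mouse 2 (adjusted p up to 0.0617, limma). Klf9, a Krüppel-like factor that answers to glucocorticoid and thyroid hormone, had values of 157, 157 and 154 in L-RalyKO mice and 89.5, 82.0 and 99.5 in controls (log2 fold change 0.79, adjusted p = 0.000881, limma).
Gata6, a zinc-finger factor of early liver, showed a log2 difference of 0.46 (limma, adjusted p = 0.0441) and kept the call in 5 of 16 alternatives. Tbx3, a T-box repressor linked to the pericentral zone, had values of 35.2, 36.6 and 30.5 in L-RalyKO mice and 49.7, 51.8 and 57.3 in controls (log2 fold change −0.62, adjusted p = 0.00429, limma). Klf9 and Tbx3 kept their calls in all 16 alternatives. Bcl6, a transcriptional repressor picked for naming after its values were seen, had the largest difference of the list without a call, with values of 8.99, 12.6 and 10.2 in L-RalyKO mice and 59.3, 48.2 and 13.9 in controls (log2 fold change −1.62, adjusted p = 0.0654, limma), and control mouse 3 again stood apart from the other controls. With DESeq2 the list had 7 calls, where 9.40% of all genes were called, and with limma it had 2 without control mouse 1 (3.19% of all genes) or without control mouse 2 (4.66% of all genes).

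**Figure D4:**
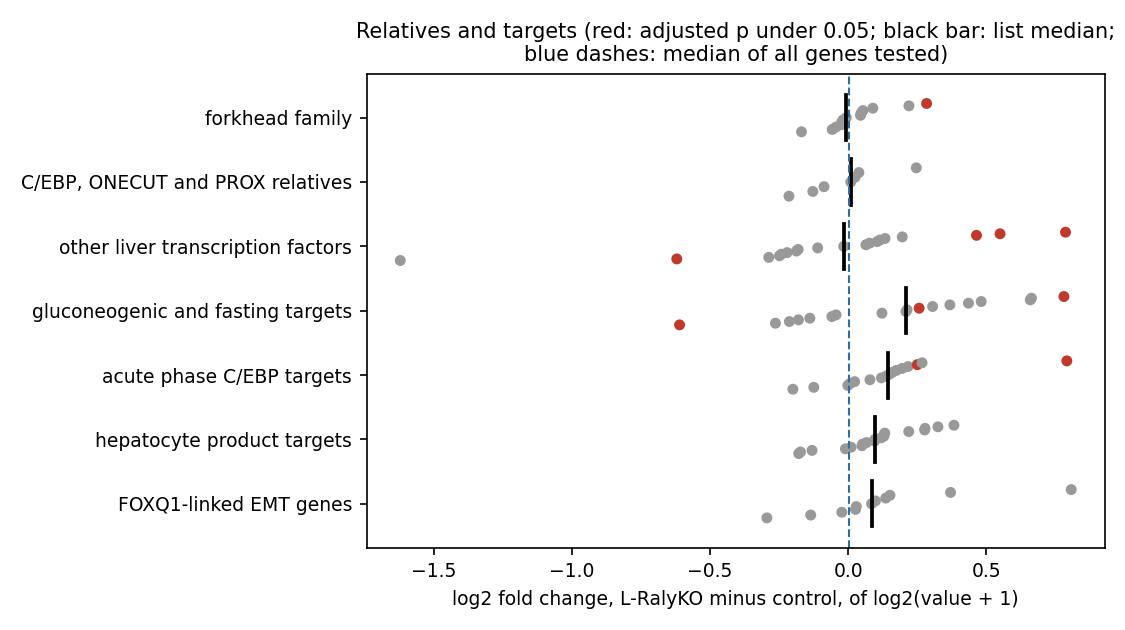
Log2 fold change (L-RalyKO minus control, of log2(value + 1)) of each tested gene in lists of relatives and targets, with called genes in red, list medians as black bars and the median of all genes tested as a dashed line. The medians are −0.01 for other forkhead genes, 0.21 for gluconeogenic targets, 0.14 for acute phase targets and 0.10 for hepatocyte products.

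Target genes of these factors were then read. Of 18 gluconeogenic and fasting genes, 2 were called higher and 1 lower (16.7%, beside 6.55% of all genes tested), with a median log2 fold change of 0.21. The median of the list's log2 differences from the control means was 0.24, 0.01 and 0.20 in L-RalyKO mice and −0.03, −0.02 and 0.03 in controls, so that L-RalyKO mouse 2 lay below control mouse 3 and the groups overlapped. Pck1, the rate-setting enzyme of gluconeogenesis and a shared target of FOXA2 and C/EBP proteins, had values of 5401, 5327 and 5616 in L-RalyKO mice and 2993, 2937 and 3625 in controls (log2 fold change 0.78, standard error 0.093, adjusted p = 0.00312, limma). G6pc, which releases free glucose in the last step of that pathway, went the other way, with values of 586, 610 and 756 in L-RalyKO mice and 1061, 1017 and 893 in controls (log2 fold change −0.61, standard error 0.10, adjusted p = 0.0125, limma). The groups of Pck1 and G6pc did not overlap, and both kept their calls in all 16 alternatives. Gys2, the liver glycogen synthase, showed a log2 difference of 0.26 (limma, adjusted p = 0.0332) and kept the call in 8 of 16 alternatives. With DESeq2 the list had 7 calls (9.40% of all genes), and with the replicate number as a block it had 5 (6.08% of all genes).

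Of 16 acute phase genes 2 were called higher and 0 lower (12.5%, beside 6.55% of all genes tested), with a median log2 fold change of 0.14 and 13 of the 16 above 0, where 51.2% of all genes were. The 8 hepatocyte markers had a median of 0.19 and the hepatocyte products one of 0.10. Orm1, an orosomucoid, had values of 361, 376 and 373 in L-RalyKO mice and 303, 311 and 320 in controls (log2 fold change 0.25, adjusted p = 0.0173, limma). Saa1, a serum amyloid A, had values of 20.6, 23.0 and 24.0 in L-RalyKO mice and 15.9, 10.4 and 12.03 in controls (log2 fold change 0.79, adjusted p = 0.0118, limma). These genes have near-identical neighbours, namely Orm2, Orm3 and Saa2, with which the authors' counting could have divided reads. Saa1 kept the call in all 16 alternatives and Orm1 in 11, losing it when any of the 3 L-RalyKO mice or control mouse 1 or 2 was left out (adjusted p up to 0.0604, limma). With DESeq2 the list had 5 calls (9.40% of all genes).
Of 19 tested hepatocyte products 0 were called by limma, 8 had an unadjusted p under 0.05 (22.7% of all genes did), 7 of them higher, DESeq2 called 5 (9.40% of all genes) and edgeR 0 (6.68% of all genes). Of 11 tested genes of epithelial-mesenchymal transition that have been tied to FOXQ1 in tumours 0 were called by limma, edgeR or DESeq2 (6.55, 6.68 and 9.40% of all genes). An unadjusted p under 0.05 was found for 2 of them (22.7% of all genes), and Snai1, Twist1, Muc5ac and Wnt3a did not pass the filter on low values. Without control mouse 3 limma called 1 of the 11 (7.02% of all genes). Cdh1, the E-cadherin gene that FOXQ1 is reported to repress, had values of 16.9, 23.2 and 25.9 in L-RalyKO mice and 6.41, 12.1 and 21.4 in controls (log2 fold change 0.81, adjusted p = 0.205, limma), with overlap of the groups.

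**Figure D5:**
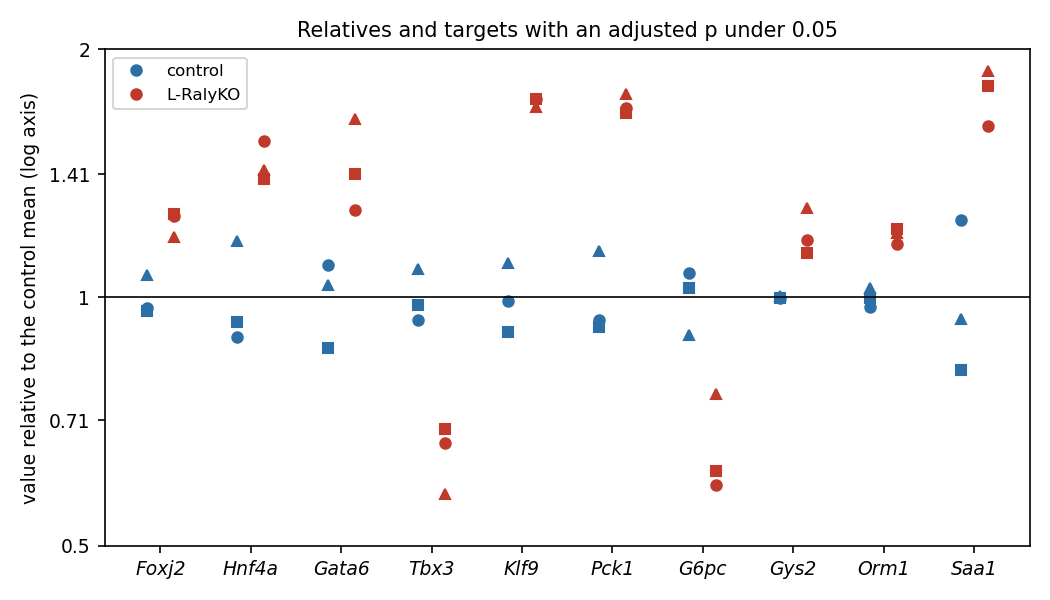
Value of each relative or target with an adjusted p under 0.05, divided by its control mean (log axis), in control (blue) and L-RalyKO mice (red), with circle, square and triangle for replicates 1, 2 and 3. Tbx3 and G6pc lie below the controls in all 3 L-RalyKO mice and the other 8 genes above them.

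The tissue label was checked against its markers. The 8 hepatocyte markers, led by Alb, summed to between 104126 and 105235 in L-RalyKO mice and between 92011 and 101689 in controls. Hnf4a alone of them was called (12.5%, beside 6.55% of all genes tested). The 8 Kupffer and macrophage markers in the table, led by Clec4f and Cd5l, summed to between 165 and 213 in L-RalyKO and between 160 and 239 in control mice. The 8 sinusoidal endothelial markers, led by Stab1, summed to between 236 and 298 and between 267 and 277, and the 8 stellate and fibroblast markers, led by Dcn, to between 170 and 223 and between 175 and 197. Cholangiocyte markers, which bear on Onecut1 and the Foxa genes, summed to between 45.5 and 56.0 and between 49.9 and 54.5, led by Spp1, with Krt19 and Krt7 below a mean value of 1. Lymphatic endothelial markers, which bear on Prox1, summed to between 77.1 and 98.0 and between 85.6 and 95.3, nearly all from Reln and Flt4, with Pdpn, Ccl21a and Mmrn1 below a mean value of 1. Blood leukocyte markers summed to between 6.53 and 8.76 and between 8.02 and 10.3, led by Ptprc. No marker of these 6 other cell types was called by limma (6.55% of all genes tested were), and 4 had an unadjusted p under 0.05 (22.7% of all genes did). Of 5 tested cholangiocyte markers 1 was higher and 2 were lower at that level, and of 8 stellate and fibroblast markers 1 was higher. The remaining lists had 0 such markers. DESeq2 called 2 of the 5 tested cholangiocyte markers and 4 of the 8 hepatocyte markers, where it called 9.40% of all genes. With limma 1 cholangiocyte marker was called with the replicate block (6.08% of all genes), without control mouse 1 (3.19%) or without control mouse 3 (7.02%). The hepatocyte sum moved in the same direction as the Foxa genes, and its part in their difference was not tested.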

How the data were processed

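Liver RNA-seq of 3 L-RalyKO and 3 control mice was analysed, and the ATAC-seq and ChIP-seq samples were not analysed here. The study's methods give stranded libraries, TopHat and Cufflinks 2.0.2 on mm9. What the authors deposited is a scaled signal per gene, that is reads over the effective library size; the tool and scaling behind it are not given in the sources used here. All values (100% per library, tolerance 0.001) were whole multiples of 1 read, and the scaling factors equalled TMM factors of edgeR 4.0.16.

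The test was that of limma 3.58.1 (R 4.3.3) with a trend on intensity, run without further scaling on log2(value + 1) of 11580 genes whose mean value reached 1. The smallest p of an exact permutation test of 3 against 3 mice is 0.1. Precision is set by the number of mice, and 3 reads correspond to a value between 0.0789 and 0.105. The labels call the mice replicates, and none were the same library (chi-square per degree of freedom between 12.6 and 84.3). Lengths and coordinates come from GENCODE vM1 on NCBIM37, which held 20970 of 24054 symbols, and promoters from RefSeq on GRCm38.p6.

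The 8 factors and all gene lists were chosen with earlier results of these data known. Named are the 8 factors, list genes with an adjusted p under 0.05, the 5 genes most like Foxq1 by each measure and the leading markers. Foxo1, Onecut2, Ddit3, Cdh1 and Bcl6 were named outside this rule, after their values were seen. Fits were tested on simulated data. Alternatives were DESeq2 1.42.0, edgeR's quasi-likelihood test and limma voom on the recovered reads, other scalings, filters and pseudocount, no intensity trend, a replicate block and leaving out each mouse.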

Additional observations from a re-analysis of the deposited data

How the results depend on the processing

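The count of genes at adjusted p under 0.05 was 758 by limma and 484 when every gene that had a read was tested. It lay between 332 and 813 when 1 mouse was left out, between 536 without an intensity trend and 1088 with DESeq2 under the other settings, and at 774 with edgeR. Calls were 51.3% higher as deposited and 40.9% with total count scaling, where the median of all genes moved to −0.03. Same-numbered mice had correlations of 0.0664, −0.0238 and 0.0196, and differently numbered mice had values between −0.0878 and 0.0599. With 3 mice per group such values cannot show whether mice were paired, and the numbers are used here only to name mice. With the replicate block 704 genes were called, 6.08% of those tested. Of the 7 tested factors Foxa2 remained the one past the threshold (adjusted p = 0.0335, limma). In that fit the gluconeogenic list had 5 calls, the epithelial-mesenchymal list 1, the cholangiocyte markers 1 and the other forkhead genes 0. The log2 fold change of Foxq1, chosen for its rise, was between 1.995 and 2.83 when a mouse was left out. Cebpb changed sign without L-RalyKO mouse 2 (log2 fold change 0.031) and lay between −0.12 and 0.03 over the fits that left out a mouse. Foxa2 lost its call without control mouse 1 and kept it in the other 15 alternatives. Foxa1 was called in 4 of 16 alternatives, Foxa3 in 3 and Onecut1 in 1, and Cebpa, Cebpb and Prox1 in 0. The causes were not tested. At these depths each factor had at least 108 reads in every mouse, so that the spread between 3 mice limits the comparison.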
